A study of Mus musculus with 3 samples.

Results

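Runx1 and 9 further genes that take part when blood cells first arise from endothelium were followed through 3 RNA sequencing libraries of mouse endothelial cells. The 10 genes were taken by symbol from a list of Runx1, Cbfb, Gfi1, Gfi1b, Myb, Spi1, Ikzf1, Nfe2, Hhex and Myct1, out of 23338 genes with a value in the files. Of the 10, 9 reached 1 FPKM (a transcript's fragments divided by its length in kilobases and by the depth of the library) in at least 1 library, as did 11073 genes in all. Gfi1 stayed under that level in each library.

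Mouse embryonic stem cells were grown as embryoid bodies, the floating aggregates in which such cells differentiate, up to day 4.75, and endothelial cells were then sorted as Tie2+CD31+CD41-. The sort keeps cells with the endothelial proteins Tie2 and CD31 and leaves out cells with CD41, an early blood protein. The groups were wild type (WT), SclKO and Gata1&2KO (labelled Gata12KO), with 1 library for each, and the labels give no strain, clone number or allele beyond these names. Scl is the older name of Tal1, the transcription factor without which no blood forms, and Gata1 and Gata2 encode zinc-finger factors that act with it. The series title and design text ask which genes depend on these factors in hemogenic endothelium, the endothelium that gives rise to blood.

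Cells of hemogenic endothelium turn into blood cells in what is called the endothelial-to-hematopoietic transition, and RUNX1 is the factor best known for driving that step. RUNX1 binds DNA together with the non-binding subunit CBFB, and it is read from a distal and a proximal promoter that give proteins with different first residues. Among its known targets are the repressors GFI1 and GFI1B, which switch off endothelial genes, and the myeloid and lymphoid factor PU.1, which is the product of Spi1. MYB and the Ikaros protein of Ikzf1 act in blood progenitors, NF-E2 (Nfe2) acts in megakaryocytes and red cells, and HHEX and MYCT1 are found in both endothelium and early blood progenitors.

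In the files, on the mouse build mm9, Runx1 lay on the reverse strand at chr16:92601711-92826311 with 4 RefSeq transcripts, 2 from each promoter. The start sites were 128738 nt apart. The upstream windows of both promoters are shown because the libraries differed in which of them Runx1 was assigned to, and those of Gfi1b and Myct1 because they were the windows of these genes in which GATA letters were found. Each sequence is from RefSeq on GRCm38.p6, where Myct1 lies on the forward strand and not on the reverse strand as in the mm9 files, reads 5′ to 3′ on the gene's own strand and ends at the base before the start. No sequence of mm9 was used here. Capitals mark a match to letters that were searched on both strands: AGGAAG or CGGAAG for ETS factors (CTTCCT or CTTCCG on the other strand), AGATAA or TGATAA for GATA factors, TGTGGT or TGCGGT for RUNX factors, and CAGCTG or CAGATG for the E-boxes bound by SCL and its partners. A match that crosses the start, as ETS letters do in Myct1, is not capitalised.
Runx1 distal, chr16:92826075-92826324, reverse strand: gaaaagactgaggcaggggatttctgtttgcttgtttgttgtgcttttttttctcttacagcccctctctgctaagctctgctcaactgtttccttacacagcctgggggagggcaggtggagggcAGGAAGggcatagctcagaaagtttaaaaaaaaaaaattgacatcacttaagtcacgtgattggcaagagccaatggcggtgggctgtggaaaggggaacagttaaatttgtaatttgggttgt
Runx1 proximal, chr16:92697330-92697579, reverse strand: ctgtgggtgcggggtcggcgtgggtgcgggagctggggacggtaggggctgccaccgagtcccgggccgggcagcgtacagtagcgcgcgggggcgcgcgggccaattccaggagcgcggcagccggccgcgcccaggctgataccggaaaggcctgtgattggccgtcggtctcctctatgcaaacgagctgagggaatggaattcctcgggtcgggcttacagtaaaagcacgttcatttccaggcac
Gfi1b, chr2:28621983-28622232, reverse strand: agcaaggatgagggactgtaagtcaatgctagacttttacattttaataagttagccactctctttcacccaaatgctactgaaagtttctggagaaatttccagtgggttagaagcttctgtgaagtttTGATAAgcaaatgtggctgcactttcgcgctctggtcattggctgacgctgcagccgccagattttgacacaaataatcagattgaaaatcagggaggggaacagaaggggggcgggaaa
Myct1, chr10:5593478-5593727, forward strand: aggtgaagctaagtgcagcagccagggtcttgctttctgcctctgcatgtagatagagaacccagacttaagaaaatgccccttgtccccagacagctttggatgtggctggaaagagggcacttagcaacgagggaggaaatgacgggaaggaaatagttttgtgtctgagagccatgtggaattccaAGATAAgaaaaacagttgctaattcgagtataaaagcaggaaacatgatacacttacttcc

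The 2 Runx1 windows differed in base composition, with a GC content of 45.6% in the distal one and 67.6% in the proximal one. The distal window held AGGAAG 124 nt before the start, and none of the searched letters were found in the proximal one. Just after the distal start, between 25 and 46 nt into the first exon, RUNX letters occurred in 2 copies on the opposite strand, where they read ACCACA when followed along the gene.
Runx1 distal, after the start, chr16:92826029-92826050, reverse strand: aacaACCACAgaACCACAagtt

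RefSeq windows from 250 nt before to 50 nt after a start were at hand for 8 of the 10 genes, 11 windows in all. RUNX letters were in 1 of the 11, the distal window of Runx1, against 22.4% of the 32851 windows of all genes. GATA letters were in 2 of 11, those of Gfi1b (120 nt before the start) and Myct1 (61 nt before), against 18.6% of all windows. E-box letters were in 1 of 11 (Myb) against 30.6%, and ETS letters in 6 of 11 against 46.5%. These matches are letters only and no binding was measured here.

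Before the results, the libraries were checked against their labels. Tal1 was at 1.59 FPKM in SclKO, which was 32.1-fold below its WT level of 51.0, and at 38.7 in the library labelled Gata12KO. Gata1 was at 4.64 FPKM in WT, was listed at 0 in SclKO and was at 5.66 in the library labelled Gata12KO, while Gata2 was at 12.0, 5.81 and 44.9 FPKM in the same order. Neither targeted gene was lower in the library labelled Gata12KO than in WT, and Gata2 was 3.73-fold higher there, so its directions rest on the label alone. Deposited bounds implied 31.6, 28.3 and 50.4M fragments in WT, SclKO and the library labelled Gata12KO. Of 10 endothelial markers all reached 1 FPKM, with a summed level of 486, 258 and 586 FPKM in that order, and the sort markers Tek (Tie2) at 62.9, 42.4 and 62.9 and Pecam1 (CD31) at 48.3, 50.4 and 66.5 were present in each library. Of 12 blood markers 7 reached 1 FPKM, and their summed level was 208, 27.5 and 55.7 FPKM, with the pan-leukocyte gene Ptprc listed at 0 in WT and SclKO and at 0.00396 in the library labelled Gata12KO. Itga2b, the gene of CD41 itself, was at 22.8, 0.333 and 17.6 FPKM. Of 10 cardiac and mesenchyme markers 8 reached 1 FPKM, at a summed 70.6, 112 and 32.0 FPKM.

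The question put to each gene was whether its level in the library labelled SclKO or Gata12KO stood apart from WT. With 1 library per group there is no replicate check and no p-value, and every statement below describes these 3 libraries. A gene was called lower or higher when the log2((FPKM + 1)/(FPKM + 1)) of a pair of libraries was at least 1 in size, the bounds deposited with the values did not overlap, and some library reached 1 FPKM. In SclKO against WT, 8 of the 10 genes were called lower and none higher, where the rule called 4.23% of the 11073 expressed genes lower and 2.12% higher. In the library labelled Gata12KO against WT, 6 were called lower and none higher, against 3.72% and 0.768% of expressed genes. Both comparisons share the WT library. The library labelled Gata12KO against SclKO had 3 of the 10 called higher and none lower, against 3.39% and 3.75% of expressed genes. Over the 10 genes the median log2 ratio was -2.05, -1.49 and 0.75 in the 3 comparisons, and over the expressed genes it was -0.03, -0.08 and -0.06. In bulk RNA, fewer cells that express a gene and less of its RNA per cell cannot be told apart. The summed level of blood markers was 208 FPKM in WT and 27.5 and 55.7 in the knockout-labelled libraries. Kit, the stem cell factor receptor gene, which was not called, gave 20.1, 25.1 and 27.4 FPKM of these sums, and without it the other 11 markers summed to 188, 2.37 and 28.3 FPKM. The part of these levels in the counts was not tested. Runx1, Gfi1b, Spi1 and Ikzf1 reached 1 FPKM in WT alone, so against WT they could be called lower but not higher.

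**Figure D1:**
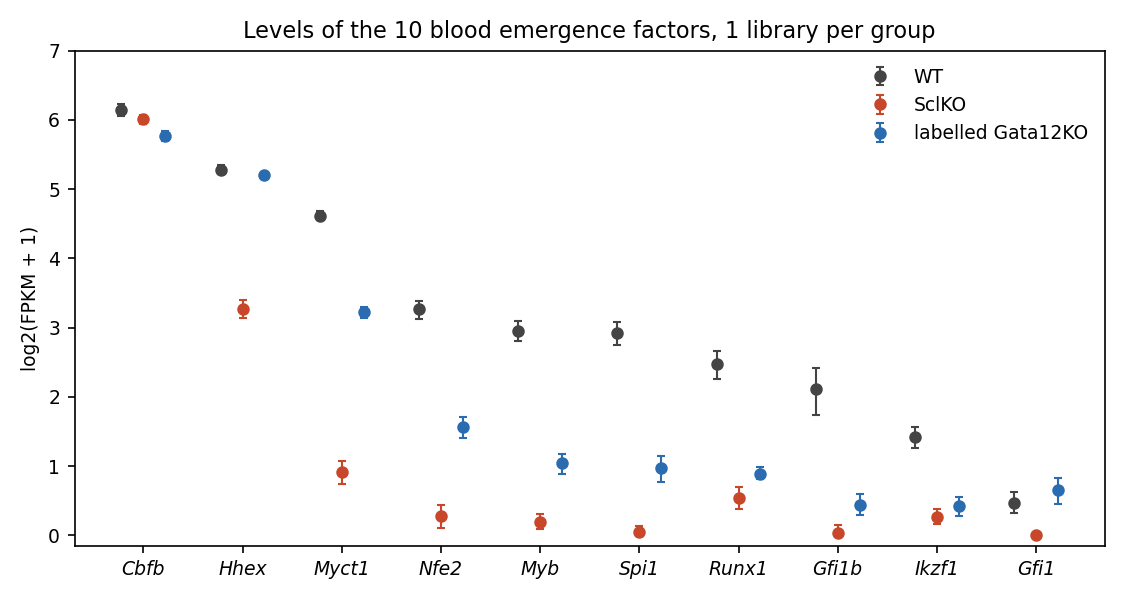
Level of each of the 10 genes in each library as log2(FPKM + 1), genes ordered by their WT level. Points are the deposited FPKM summed over a gene's transcripts and bars its deposited bounds, which cover no difference between cultures or library preparations. Cbfb lay between 53.5 and 69.8 FPKM in all 3 libraries, Hhex was lower in SclKO alone, and the other genes with 1 FPKM or more were highest in WT and lowest in SclKO.

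In WT the order of levels ran from Cbfb at 69.8 FPKM through Hhex, Myct1, Nfe2, Myb, Spi1, Runx1, Gfi1b and Ikzf1 to Gfi1 at 0.385 FPKM. Neighbours in that order had separate bounds except for Myb beside Spi1 and Runx1 beside Gfi1b. SclKO kept the 3 highest genes in the same order, Cbfb, Hhex and Myct1, and from Runx1 at 0.452 FPKM down to Gfi1b at 0.0232 FPKM each gene's bounds overlapped those of the next. The library labelled Gata12KO had Cbfb, Hhex, Myct1 and Nfe2 at the top with separate bounds, and from Myb at 1.06 FPKM down to Ikzf1 at 0.344 FPKM each gene's bounds overlapped those of the next.

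Runx1 itself was at 4.56 FPKM (bounds 3.77 to 5.35) in WT, at 0.452 (0.30 to 0.629) in SclKO and at 0.854 (0.755 to 0.973) in the library labelled Gata12KO. WT was high, both knockout-labelled libraries were low, and no pair of bounds overlapped. The values rested on 881, 88 and 299 fragments, as computed from the FPKM, the transcript lengths and the implied totals. The level was 10.1-fold lower in SclKO than in WT (exact binomial 95% interval 8.10 to 12.7) and 5.34-fold lower in the library labelled Gata12KO (4.68 to 6.11), where all such intervals cover counting error alone. On the log2(FPKM + 1) scale, which understates ratios of low values, the differences were -1.94 and -1.59. The level in the library labelled Gata12KO was 1.89-fold that in SclKO (1.49 to 2.43), a log2 difference of 0.35 that the rule did not call.

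Split by promoter, the Runx1 estimates differed among the libraries in make-up as well as in amount. The distal transcripts summed to 2.58 FPKM in WT (bounds 2.14 to 3.02), which was 56.6% of its Runx1 FPKM, and were listed at 0 in SclKO and in the library labelled Gata12KO, with upper bounds of 0.0258 and 0.0144 FPKM. The proximal transcripts were at 1.98 FPKM (1.63 to 2.33) in WT, at 0.452 (0.30 to 0.604) in SclKO and at 0.854 (0.755 to 0.959) in the library labelled Gata12KO. WT was thus the highest for both promoters, and the proximal level alone was 4.38-fold lower in SclKO and 2.32-fold lower in the library labelled Gata12KO.

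Each promoter serves a transcript with and one without an internal exon of 192 nt at chr16:92644399-92644590 (mm9). The distal transcript with it, NM_001111021, was at 1.72 FPKM in WT, and the distal transcript without it, NM_001111022, was at 0.866 FPKM. The proximal transcript with it, NM_001111023, was at 1.25, 0.365 and 0.854 FPKM in WT, SclKO and the library labelled Gata12KO. The proximal transcript without it, NM_009821, was at 0.727, 0.0867 and 3.24e-05 FPKM in the same order. Transcripts with the internal exon therefore made up 65.1% of Runx1 FPKM in WT, 80.8% in SclKO and nearly the whole in the library labelled Gata12KO.

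**Figure D2:**
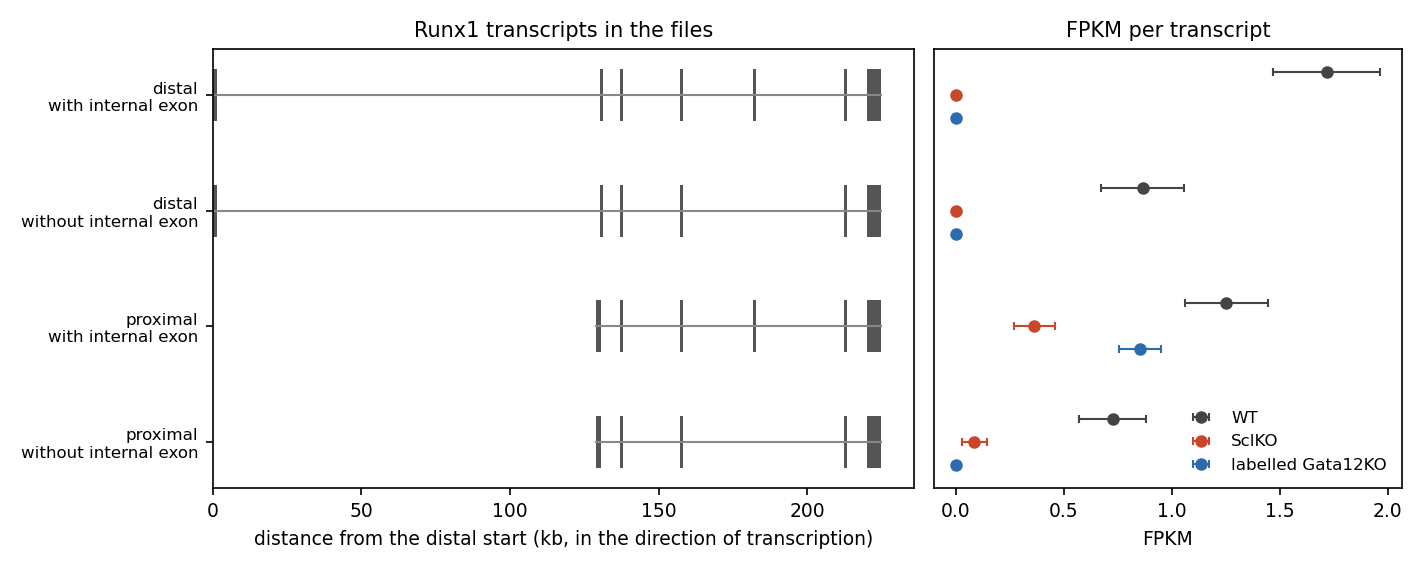
Left, the exons of the 4 Runx1 transcripts by distance in kb from the distal start, in the direction of transcription (exons under 0.9 kb are widened to be visible); right, the FPKM of each transcript in each library with its deposited bounds. The distal transcripts, at 1.72 and 0.866 FPKM in WT, are listed at 0 in the 2 libraries labelled as knockouts, where the proximal transcript with the internal exon holds most of the level.

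These splits are Cufflinks' estimates, made from reads that mostly fall on exons that the transcripts share. Exons found in distal transcripts alone were 2 and came to 249 nt, whereas the part of the first exon found in proximal transcripts alone came to 1591 nt. By length and depth, the WT distal level corresponds to 20.3 fragments on the 249 nt. Had the distal share of WT held elsewhere, 1.80 fragments would have fallen there in SclKO and 6.06 in the library labelled Gata12KO. The 249 nt alone could thus hardly show a loss of the distal share at this depth in SclKO. Fragments on the 1591 nt also inform the split, and their number was not worked out. A listed 0 can also be a failed estimate in these files, since the ribosomal gene Rpl13a, which every cell uses, was listed at 0 in all 3 libraries.

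Cbfb, the partner of RUNX1, was the gene that moved least among the 9 expressed ones in SclKO. It was at 69.8 FPKM (bounds 65.6 to 74.1) in WT, at 63.4 (60.3 to 66.6) in SclKO and at 53.5 (51.0 to 56.1) in the library labelled Gata12KO, with log2 ratios of -0.14 and -0.38 against WT. The bounds of WT and SclKO overlapped, those of the library labelled Gata12KO lay below both, and no pair was called. Scaling each library to its FPKM sum turned the last ratio to 0.31, and taking the highest transcript alone turned both, to 0.46 and 0.37.

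Within Cbfb (chr8:107694574-107741888, forward strand, mm9) the 4 listed transcripts differ in an exon that starts at base 107726352. The transcript without that exon was at 24.2 FPKM in WT (bounds 22.8 to 25.6), was listed at 0 in SclKO (upper bound 0.0273) and was at 4.22 in the library labelled Gata12KO (3.72 to 4.71), or 34.7%, 0 and 7.88% of Cbfb FPKM. The form with an exon of 127 nt was at 25.6, 35.6 and 33.4 FPKM, and the pair of transcripts with 96 nt summed to 20.0, 27.8 and 15.9 FPKM. The near-equal totals of Cbfb thus stood over unequal transcript estimates, with WT alone giving a large share to the transcript that lacks the exon. As for Runx1, reads on shared exons feed these estimates.

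A list of 5 further genes held Runx2, Runx3 and corepressor genes of the ETO family. Of these 5 genes 3 reached 1 FPKM, none of them a RUNX gene. Against WT, 1 was called lower in SclKO and none in the library labelled Gata12KO, beside 4.23% and 3.72% of expressed genes. It was Cbfa2t3, which encodes a corepressor of the ETO family that binds SCL complexes, at 7.64, 0.664 and 6.74 FPKM in WT, SclKO and the library labelled Gata12KO. Its level in the last was close to that of WT, unlike that of Runx1. Runx2 and Runx3, the paralogs of Runx1, lay at 0.306 FPKM or less in each library.

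The repressor Gfi1b (chr2:28464970-28477502, mm9) was at 3.34 FPKM (bounds 2.34 to 4.35) in WT, at 0.0232 (0 to 0.113) in SclKO and at 0.358 (0.222 to 0.517) in the library labelled Gata12KO. Bounds of all 3 libraries were separate, and the values rested on 164, 1 and 28 fragments. The ratio of WT to SclKO was 144 with a counting interval of 25.5 to 5728, and WT was 9.35-fold above the library labelled Gata12KO (6.24 to 14.5). Log2 ratios against WT were -2.09 and -1.68, both called lower.

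Gfi1 (chr5:108145674-108154825, mm9), the close relative of Gfi1b, was at 0.385 FPKM in WT (bounds 0.244 to 0.549), was listed at 0 in SclKO and was at 0.568 in the library labelled Gata12KO (0.362 to 0.773). The first and the last of these overlapped, and their ratio of 1.47 had a counting interval of 0.951 to 2.34, so no difference was detectable at 30 and 72 fragments. Nearly the whole WT level was assigned to the upstream of the 2 Gfi1 starts, while the downstream start took 16.7% in the library labelled Gata12KO. Corepressors through which both proteins act were at ordinary levels throughout. All 8 of that list reached 1 FPKM, and 1 was called, Rcor2 at 15.0, 32.2 and 24.5 FPKM, which was higher in SclKO than in WT. None of the 8 was called in the library labelled Gata12KO against WT. Of expressed genes, 2.12% were called higher and 4.23% lower in SclKO, and 0.768% and 3.72% in the library labelled Gata12KO. So few genes cannot be set apart from these shares.

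Spi1 (chr2:90936954-90955913, mm9), the gene of the myeloid regulator PU.1, was at 6.58 FPKM (bounds 5.72 to 7.43) in WT, at 0.0312 (0 to 0.0935) in SclKO and at 0.954 (0.699 to 1.21) in the library labelled Gata12KO. The 3 libraries had separate bounds, on 238, 1 and 56 fragments. The ratio of WT to SclKO was 211 with a counting interval of 37.5 to 8368, and WT was 6.89-fold above the library labelled Gata12KO (5.13 to 9.39). The log2 ratios of -2.88 and -1.95 were both called lower. Of 8 relatives and partners of PU.1, 2 reached 1 FPKM, Jun and Cebpb, and neither was called in any comparison. These 2 genes are too few to set against the 4.23% and 3.72% of expressed genes called lower in SclKO and the library labelled Gata12KO.

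Myb (chr10:20844736-20880790, mm9), which progenitors need in order to expand, was at 6.77 FPKM (bounds 6.02 to 7.51) in WT, at 0.143 (0.0635 to 0.242) in SclKO and at 1.06 (0.850 to 1.26) in the library labelled Gata12KO. It stood with Spi1 in each library, at overlapping bounds. WT was 47.4-fold above SclKO (27.6 to 89.5) and 6.40-fold above the library labelled Gata12KO (5.42 to 7.60), and log2 ratios of -2.77 and -1.92 were called lower. The relatives Mybl1 and Mybl2 and the coactivators of MYB, 6 genes that all reached 1 FPKM, had no call against WT. With 4.23% and 3.72% of expressed genes called lower in the 2 comparisons with WT, that does not set 6 genes apart. The largest ratio among them was that of Cited2, which encodes a regulator of the coactivators CBP and p300, at 30.7, 60.8 and 18.3 FPKM. Cited2 was called lower in the library labelled Gata12KO against SclKO.

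Ikzf1 (chr11:11586216-11672929, mm9) was the lowest of the expressed factors in WT, at 1.68 FPKM (bounds 1.39 to 1.96), against 0.203 in SclKO (0.125 to 0.295) and 0.344 in the library labelled Gata12KO (0.215 to 0.473). WT stood apart from both, while the bounds of the knockout-labelled libraries overlapped. The fold differences from WT were 8.26 (5.55 to 12.8) and 4.88 (3.79 to 6.32). The log2 ratio against WT of -1.15 in SclKO was called lower and that of -0.99 in the library labelled Gata12KO just missed. It was called there with a pseudocount of 0.1, where it was -2.00, with the trend along transcript length removed, where it was -1.07, and from the highest transcript alone, where it was -1.11. Of 8 other Ikaros family and NuRD genes, 6 reached 1 FPKM and none was called in any comparison. Against WT the rule called 4.23% of expressed genes lower in SclKO and 3.72% in the library labelled Gata12KO. A lack of calls among 6 genes therefore does not set them apart. The NuRD genes encode parts of a chromatin complex that Ikaros recruits.

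Nfe2 (chr15:103078649-103085847, mm9) was at 8.60 FPKM (bounds 7.74 to 9.46) in WT, at 0.217 (0.0722 to 0.361) in SclKO and at 1.96 (1.64 to 2.28) in the library labelled Gata12KO. Each library stood apart from the others. WT was 39.7-fold above SclKO (20.7 to 87.5) and 4.39-fold above the library labelled Gata12KO (3.63 to 5.34), with log2 ratios of -2.98 and -1.70. The library labelled Gata12KO was in turn 9.05-fold above SclKO (4.64 to 20.2), a log2 ratio of 1.28 that was called higher. Among 8 relatives and small Maf partners of NF-E2, 7 reached 1 FPKM and none was called against WT. As 4.23% and 3.72% of expressed genes were called lower in the 2 comparisons with WT, that does not set 7 genes apart. The small Maf gene with the largest ratio, Maff, was at 9.43, 4.88 and 11.3 FPKM, and was called higher in the library labelled Gata12KO against SclKO.

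Hhex (chr19:37509331-37515221, mm9), a homeobox gene of early endothelium and blood progenitors, was at 37.9 FPKM (bounds 36.1 to 39.6) in WT, at 8.67 (7.79 to 9.55) in SclKO and at 35.8 (34.4 to 37.1) in the library labelled Gata12KO. SclKO was low and the other 2 libraries overlapped. WT was 4.37-fold above SclKO (3.91 to 4.89), a log2 ratio of -2.01 that was called lower. Against the library labelled Gata12KO the ratio was 1.06 with an interval of 0.998 to 1.12, and the small log2 difference of -0.08 took the other sign, 0.02, 0.60 and 0.16, with median-ratio scaling, scaling to the FPKM sum and removal of the length trend. The library labelled Gata12KO was 4.13-fold above SclKO (3.71 to 4.60), a log2 ratio of 1.93 that was called higher.

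Myct1 (chr10:4739752-4752813, mm9), which encodes a small membrane-associated protein of endothelial and blood progenitor cells, had the largest difference of the 10 between SclKO and WT on the log2(FPKM + 1) scale, while the plain folds of Spi1, Gfi1b, Myb and Nfe2 were larger. It was at 23.6 FPKM (bounds 22.5 to 24.7) in WT, at 0.891 (0.670 to 1.11) in SclKO and at 8.31 (7.81 to 8.81) in the library labelled Gata12KO. The 3 levels were well apart, with the library labelled Gata12KO in between. WT was 26.5-fold above SclKO (20.7 to 34.4) and 2.84-fold above the library labelled Gata12KO (2.63 to 3.06), log2 ratios of -3.70 and -1.40. The second of these was -0.77 and not called when each library was scaled to its FPKM sum. The library labelled Gata12KO was 9.33-fold above SclKO (7.26 to 12.2), a log2 ratio of 2.30 that was called higher.

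**Figure D3:**
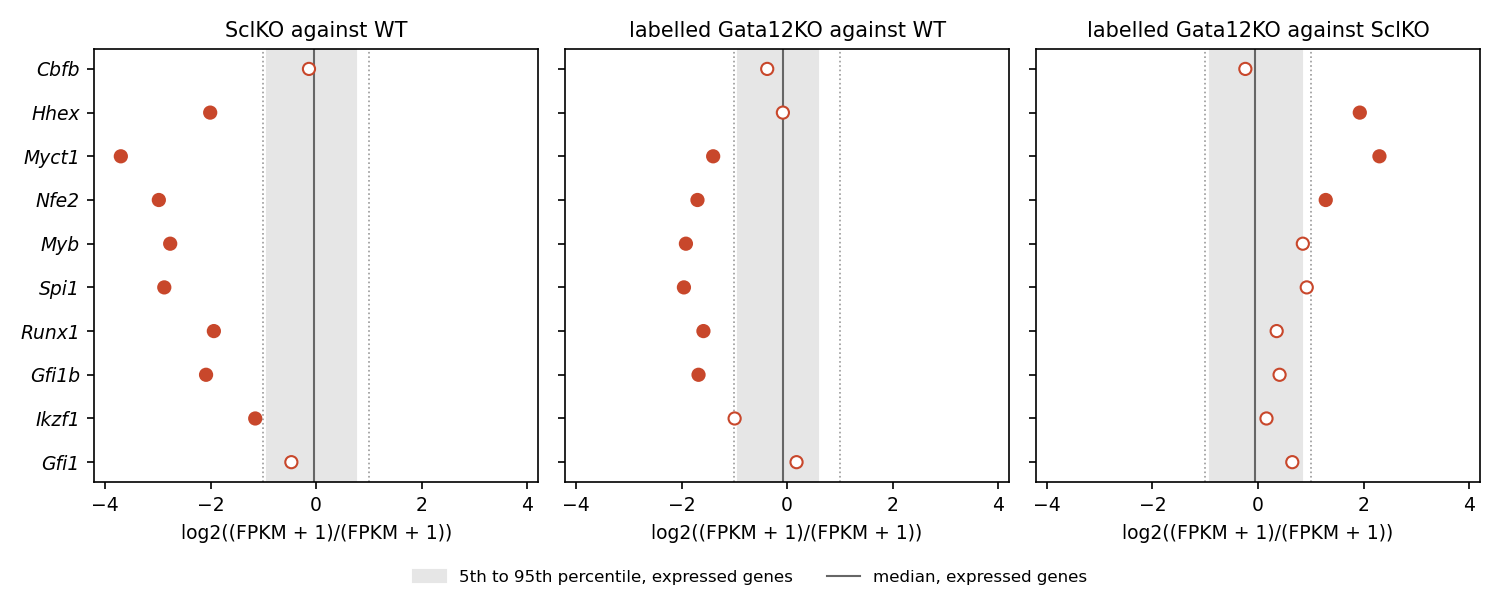
Log2((FPKM + 1)/(FPKM + 1)) of the 10 genes in each of the 3 comparisons, with filled points for genes called higher or lower, open points for the others, a grey band for the 5th to 95th percentile and a line for the median of expressed genes, and dotted lines at -1 and 1. In SclKO against WT 8 points are filled and lie between -3.70 and -1.15, in the library labelled Gata12KO against WT 6 lie between -1.95 and -1.40, and in the last panel Nfe2, Hhex and Myct1 are filled at 1.28, 1.93 and 2.30.

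Scaling mattered for both contrasts with the library labelled Gata12KO. Relative to WT the library labelled Gata12KO had 85 genes called higher and 412 lower, but 1348 higher and 115 lower when each library was scaled to its FPKM sum, which moved the median log2 ratio of expressed genes from -0.08 to 0.52. With the trend along transcript length removed the counts were 150 and 167. For the library labelled Gata12KO against SclKO the counts went from 375 higher and 415 lower to 2173 and 122 under the FPKM sum, with a median of 0.66, and the number of the 10 called higher went from 3 to 6. Of the 10 genes, the library labelled Gata12KO had 5 below WT by the rule under the FPKM sum and 7 with the length trend removed.

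Genes upstream of the emergence of blood differed between the knockout-labelled libraries. Of 17 such genes 16 reached 1 FPKM. In SclKO against WT 5 were called lower and none higher, at a median log2 ratio of -0.61, where the rule called 4.23% of expressed genes lower and 2.12% higher. Tal1, Gata1 and Gata2, which the labels name, are among the 16, so the call of Tal1 in SclKO restates the label. No count or median was taken without them. The largest ratios were those of Tal1, given above, of its paralog Lyl1 at 21.3, 1.35 and 17.5 FPKM in WT, SclKO and the library labelled Gata12KO, and of Gata1. The other 2, named after their values were seen, were the ETS factors Fli1 at 39.5, 12.2 and 44.8 FPKM and Erg at 7.91, 2.11 and 8.09 FPKM. Relative to WT, the library labelled Gata12KO had none of the 16 called lower and Gata2 called higher, at a median of 0.15. The rule called 3.72% of expressed genes lower and 0.768% higher there. Lyl1, Fli1 and Erg were thus not called against WT in the library in which Runx1, Gfi1b, Spi1, Myb and Nfe2 were low. Bounds there were separate from those of WT for Lyl1, which was lower, and for Fli1, which was higher.

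Downstream genes of early blood, a list of 15 that RUNX1 and PU.1 are known to act on, had more members called lower in SclKO than in the library labelled Gata12KO. In SclKO against WT 7 of the 9 that reached 1 FPKM were called lower, with a median log2 ratio of -1.59, and in the library labelled Gata12KO against WT 4 were, with a median of -0.70. Over all 15 the medians were -0.90 and -0.46, and over all expressed genes -0.03 and -0.08. None of the 15 was called higher in either. Of all expressed genes, the rule called 4.23% lower and 2.12% higher in SclKO against WT. For the library labelled Gata12KO these shares were 3.72% and 0.768%. Itga2b, whose product is the megakaryocyte and early blood integrin CD41, was at 22.8 FPKM in WT, 0.333 in SclKO and 17.6 in the library labelled Gata12KO. It was called lower than WT in SclKO alone. Its bounds in the library labelled Gata12KO, 16.9 to 18.2, still lay below those in WT, 21.9 to 23.8. Mpo, which encodes the granule enzyme myeloperoxidase, was at 10.2, 0.286 and 3.37 FPKM, and Alox5ap, which encodes the leukotriene pathway protein FLAP, was at 21.8, 3.40 and 5.79 FPKM. Both were called lower in each knockout-labelled library. The other 2 called lower in the library labelled Gata12KO, named after their values were seen, were Pf4 and Cd34, at 0.567 and 5.50 FPKM there against 2.99 and 18.9 in WT.

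**Figure D4:**
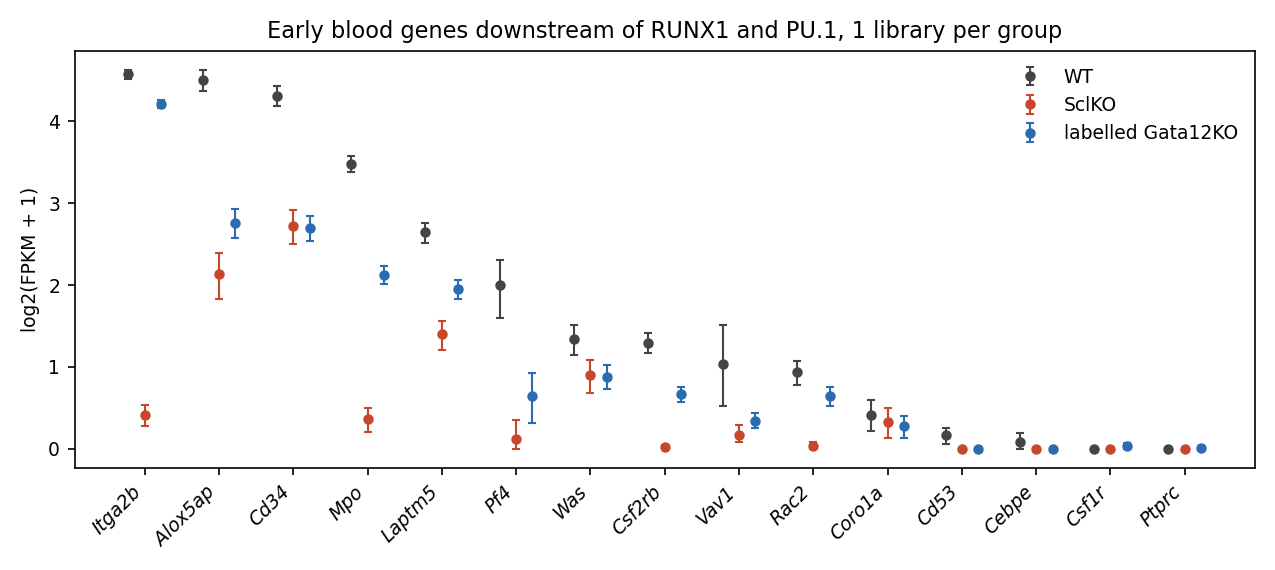
Level of 15 early blood genes downstream of RUNX1 and PU.1 in each library as log2(FPKM + 1), ordered by their WT level; points are the deposited FPKM and bars the deposited bounds. WT is highest for the genes with 1 FPKM or more, and SclKO has 7 of 9 called lower, beside 4.23% of expressed genes. Itga2b is at 17.6 FPKM in the library labelled Gata12KO against 22.8 in WT, with separate bounds and no call.

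Marker lists for the cell types in the sort were set beside these values. For scale, the rule called 4.23% of expressed genes lower and 2.12% higher in SclKO against WT. In the library labelled Gata12KO against WT it called 3.72% lower and 0.768% higher. Blood cell markers had 6 of the 7 expressed members called lower in SclKO and 4 in the library labelled Gata12KO against WT, the largest being the embryonic globins Hba-x at 71.3, 0.0881 and 0 FPKM and Hbb-bh1 at 76.8, 0.258 and 5.66 FPKM. Endothelial markers had 4 of 10 called lower in SclKO, among them Nos3 at 17.7, 2.31 and 21.4 FPKM, Esam at 88.0, 14.9 and 85.2 FPKM, and Tie1 at 64.2, 16.6 and 56.4 FPKM. In the library labelled Gata12KO 2 of the 10 were called higher, Kdr and Flt1, and none lower. Cardiac and mesenchyme markers had 2 of 8 called higher in SclKO, Pdgfrb and Col3a1, and 2 called lower in the library labelled Gata12KO, Col1a1 and Acta2. No housekeeping gene of the 7 expressed was called in any comparison. The part of these marker levels in the values of the 10 factors was not tested.

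Genes with the pattern most like that of 3 of the factors were found by the distance between pairs of log2 ratios, SclKO and the library labelled Gata12KO each against WT, over 9425 genes with at least 2 FPKM in a library. Nearest to Runx1 was Clec1b, the platelet receptor CLEC-2, at 6.56, 0.987 and 1.42 FPKM and a distance of 0.057, followed by Cadm3, Plek, Insl3 and Gfi1b. Gfi1b, at a distance of 0.17, was itself one of the 10 factors. Nearest to Nfe2 were Fxyd7 (0.16), Plcg2, the globins Hbb-y and Hbb-bt, and Cacng3. The beta-type globins resemble each other in sequence, so the split of reads between Hbb-y and Hbb-bt is uncertain. Nearest to Hhex were the membrane protein gene Itm2a at 430, 116 and 405 FPKM (0.12), Afap1l1, the endothelial receptor gene Tie1 (0.15), Asic2 and Fmo1. Likeness here is over 2 ratios with WT in common and describes 3 libraries. The ratios are those of FPKM + 1, so genes of different level can lie near each other with unlike plain folds. Near Runx1, for example, Insl3 was at 37.8, 8.55 and 12.9 FPKM and Plek at 3.14, 0.0451 and 0.267 FPKM.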

How the data were processed

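Libraries were built from total RNA of 3 sorted populations, 1 each, with a Nugen Encore Complete kit and read to 50 nt on a HiSeq instrument, per the labels' protocols. The submitters' processing notes list Cuffdiff, Cufflinks 2.0.1 and TopHat2 2.0.4 with no roles, and hg19 beside mm9; the chromosome names match mm9. The values deposited by the authors are Cufflinks FPKM with lower and upper bounds for 30123 RefSeq entries per library. Whether counting used strand was not given in the sources used here, and no other gene's entries overlapped the 10 loci.

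Of 29646 accessions, 29059 were named from the RefSeq gene table and 177 from the GENCODE table, and 410 by neither. FPKM and bounds were summed over a gene's entries, and 144 genes whose entries differed between files were left out, none of them among the 10. Total fragments were fitted by median regression of the bounds, taken as 2 Poisson SD, over entries of at least 100 reads, which 71.3%, 71.0% and 68.8% of those entries met to within 1%. Fold intervals are exact binomial 95% intervals on the fragments. The rule for calls was tested on simulated Poisson libraries in which only genes at 10 FPKM or more were changed. Most of the 10 genes lay below that level in WT, so the rule was not tested at their levels. Noise beyond counting was not simulated. The 10 genes and the 12 gene lists were chosen with earlier results of these data known, and 1 gene of the list downstream of RUNX1 and PU.1 is not reported here and is in none of its counts. Genes named beyond the 10 were the targeted genes, as many as 3 genes of each list with the largest log2 ratio against WT, the 5 genes nearest in pattern to Runx1, Nfe2 and Hhex, and the exceptions stated. Alternatives changed the pseudocount, the minimum FPKM, the scaling, the trend along transcript length, the summing of bounds and the summing over entries. Python 3.11.15, scipy 1.17.1 and statsmodels 0.14.6 were used.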

Additional observations from a re-analysis of the deposited data

How the results depend on the processing

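The fold intervals cover counting error alone. Deposited bounds were wider than counting error for some genes with several transcripts. The housekeeping gene Ywhaz, with 4 entries, was at 235 FPKM in WT with bounds of 11.3 to 266 on 22184 fragments. Differences between cultures and library preparations were not measured, and levels under 1 FPKM rest on few fragments. No paired analysis was possible because each group has 1 library. For the same reason no library could be left out, and the comparison of SclKO with WT is the one that does not involve the library labelled Gata12KO. Over the 300 values of single genes under 10 alternatives each, 267 kept their side of the threshold with no change of sign, 15 lost a call, 10 gained one and 8 uncalled values of Cbfb, Hhex and Ikzf1 changed sign. Some of the lost calls are of genes that were no longer tested. Many of the 267 could not change, so their number does not measure how firmly the calls hold. Dropping the minimum cannot alter genes that met it, and Spi1, Nfe2, Hhex and Myct1 have a single transcript to sum. Among the 267, the ratio of Runx1 between the library labelled Gata12KO and SclKO went from 0.35 to 0 with the highest transcript alone, a distal one listed at 0 in both. No called value changed sign. The minimum over the 2 compared libraries was chosen after seeing the data and changed no call among the 10 genes. Of the 10 genes, the number called lower in SclKO against WT was 8, and 5 with a pseudocount of 5. It was also 5 with a minimum of 5 FPKM in any library, where Runx1, Gfi1b and Ikzf1 are no longer tested and their ratios are unchanged. Relative to WT, the library labelled Gata12KO had 6 called lower, and 1 with a pseudocount of 5, which left Myct1, and 4 with the minimum of 5 FPKM, where Runx1 and Gfi1b are no longer tested. The number called higher in the library labelled Gata12KO against SclKO was 3, and 6 with a pseudocount of 0.1 and with libraries scaled to their FPKM sum. Over all expressed genes, a pseudocount of 5 gave 82 higher and 184 lower in SclKO against WT, 22 and 157 in the library labelled Gata12KO relative to WT and 132 and 160 relative to SclKO, and a pseudocount of 0.1 gave 4.29% higher and 6.70% lower in SclKO against WT (2.12% and 4.23% with a pseudocount of 1), 229 genes higher and 711 lower for the library labelled Gata12KO relative to WT and 595 and 689 relative to SclKO. The highest transcript alone gave 357 higher and 605 lower in SclKO and 176 and 550 in the library labelled Gata12KO, each relative to WT, and median-ratio scaling gave 129 higher and 317 lower in the latter. The distal share of Runx1 in WT was 57.8% from the highest transcript of each promoter alone.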
